A study of Mus musculus with 6 samples.

Results

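The adult globin genes were examined in RNA from the femurs of mice whose ovaries had been removed (OVX), a surgical model of estrogen loss. The members were taken by gene name from a list of 5 symbols, the beta-globin genes Hbb-bs and Hbb-bt, the alpha-globin genes Hba-a1 and Hba-a2, and the chaperone gene Ahsp. Of these, 4 were found among the 54532 genes of the FPKM table, and Ahsp was not analysed here, so that neither its level nor its ratio to globin is given. The labels describe 6 samples in 2 groups of 3, mice dosed orally with zingerone, a phenolic compound of ginger, at 100 mg/kg per day for 8 weeks, and OVX mice given saline. Both groups are labelled WT, and no label gives a strain, an age or which animals were pooled. Values of 3 libraries, all OVX with saline, could be tied to their labels and are called libraries 1, 2 and 3. The zingerone libraries were not analysed here, so no effect of zingerone on globins was tested. The titles give 8, 9 and 10 weeks to libraries 1, 2 and 3. The characteristics name RAW264.7, a macrophage-like cell line, while the extraction text names ground femur. No label names separate animals, so that the spread between libraries may in part be technical.

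Adult mouse hemoglobin is a tetramer of a pair of alpha chains and a pair of beta chains, each holding a heme. The alpha genes and the beta genes lie in separate clusters on different chromosomes, each with embryonic genes that are silenced after the switch to adult hemoglobin, and each governed by distant enhancers. Globin transcripts build up late in erythroid maturation, under the factors GATA1, TAL1 and KLF1, and persist in the enucleated reticulocyte. Bone marrow is the main site of red cell formation in the adult mouse. In these bulk samples, fewer erythroid cells and less globin RNA per cell cannot be told apart.

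The members form pairs of close copies, which decides how their reads can be assigned. Hbb-bs (ENSMUSG00000052305) lies on mm10 chromosome 7 from 103826534 to 103828096 and Hbb-bt (ENSMUSG00000073940) from 103812524 to 103813996, both on the minus strand. Hba-a1 (ENSMUSG00000069919) lies on chromosome 11 from 32283511 to 32284465 and Hba-a2 (ENSMUSG00000069917) from 32296489 to 32297298, both on the plus strand. Each principal transcript of GENCODE release M21 has 3 exons, and 0 other genes of the table overlap any member. The coding sequences of Hbb-bs and Hbb-bt, 444 bases each, differ by 1 base, C417T, with positions counted from 1 at the A of the start codon and the Hbb-bs base first. Those of Hba-a1 and Hba-a2, 429 bases each, also differ by 1 base, C381T, with the Hba-a1 base first. From the RefSeq start on, 77.2% of the 100-base windows of the Hba-a1 transcript also occur in Hba-a2, and 74.3% of those of Hba-a2 occur in Hba-a1. For Hbb-bs and Hbb-bt the shares were 62.6% and 62.3%. Neither the read length nor the authors' treatment of reads that match both copies is given in the sources used here. The split between 2 copies is therefore uncertain, and so is the level of each pair.

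The promoters show the same pairing, and are given because all 4 genes shared 1 order across libraries. Each line holds the 150 bases before the RefSeq start, 5′ to 3′ on the strand of the gene (GRCm38.p6, from RefSeq). Capitals mark CACCC, the core of the box bound by KLF1, CCAAT, and the TATA-like ATATAA, on either strand. The windows are chr7:103827929-103828078 for Hbb-bs and chr7:103813924-103814073 for Hbb-bt, both minus strand, and chr11:32283522-32283671 for Hba-a1 and chr11:32296342-32296491 for Hba-a2, both plus strand.
Hbb-bs: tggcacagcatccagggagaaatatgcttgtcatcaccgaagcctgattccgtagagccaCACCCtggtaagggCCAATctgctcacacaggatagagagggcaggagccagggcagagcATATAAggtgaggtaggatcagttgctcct
Hbb-bt: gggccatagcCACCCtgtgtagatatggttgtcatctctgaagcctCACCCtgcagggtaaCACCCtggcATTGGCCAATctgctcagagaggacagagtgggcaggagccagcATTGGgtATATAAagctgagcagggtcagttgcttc
Hba-a1: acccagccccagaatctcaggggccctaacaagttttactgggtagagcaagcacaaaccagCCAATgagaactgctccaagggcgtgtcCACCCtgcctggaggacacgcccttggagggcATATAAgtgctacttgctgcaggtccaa
Hba-a2: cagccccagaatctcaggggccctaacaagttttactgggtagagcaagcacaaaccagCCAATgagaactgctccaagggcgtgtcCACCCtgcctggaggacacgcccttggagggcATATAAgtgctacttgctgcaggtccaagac

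The alpha windows were identical over all 147 bases that overlap in their alignment, whereas the beta windows matched at 109 of 148 aligned bases, or 73.6%. All 4 held CACCC, which 37.4% of 32851 RefSeq promoter windows of this length hold on either strand. All 4 also held the motif CCAAT, found in 24.5% of those windows, and the motif ATATAA, found in 5.35%. In Hbb-bs the CACCC match began 90 bases before the start and lay inside the longer CCACACCC, which 2.18% of promoters hold. Hbb-bt had 3 CACCC matches, beginning 140, 104 and 89 bases before its start, and 3 CCAAT matches, of which 2 were on the opposite strand. ATATAA began 30, 29, 28 and 31 bases before the start in Hbb-bs, Hbb-bt, Hba-a1 and Hba-a2, and in Hbb-bt it overlapped TATAAA, which 7.57% of promoters hold. The motif ATATAA was chosen after the promoters had been seen. None of the 4 windows held any of the 4 forms of the GATA motif on either strand. Of all promoters, 5.65% held the form AGATAA and 4.45% the form TGATAA. The form AGATAG was in 4.34% of them and the form TGATAG in 3.63%. None of the 4 held ATAAAA either, which was in 10.1% of promoters.

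Hbb-bs, a beta-globin gene, ranked 1 in the table by mean level under the listed lengths. It had 20397, 22806 and 26898 FPKM (fragments per kilobase of listed gene length, scaled by library total) in libraries 1, 2 and 3, from 270688, 295059 and 341546 reads. Its place above Hba-a1 depended on the length used, as given with the alpha to beta ratio. The beta gene Hbb-bt had 5314, 7241 and 7877 FPKM in libraries 1, 2 and 3. It ranked 5 among all genes by its mean of 6811 ± 1334 FPKM (SD, n = 3), next to S100a8, a calprotectin gene of neutrophils, at 7216 ± 567, and mt-Co1, a cytochrome oxidase subunit, at 6184 ± 1724. These neighbours did not differ from Hbb-bt by more than the spread between libraries.

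The alpha-globin gene Hba-a1 had 15498, 15942 and 18076 FPKM in libraries 1, 2 and 3, and ranked 2 in the table by the listed lengths. Libraries 1 and 2 lay close together and library 3 stood above both. The other alpha gene, Hba-a2, had 801, 956 and 1167 FPKM and ranked 28, at a mean of 975 ± 184 FPKM (SD, n = 3). Its neighbours in rank, the neutrophil gene Retnlg at 996 ± 67.9 and the ribosomal protein gene Rpl36 at 952 ± 39.8 FPKM, lay within its spread. By the listed lengths, the order Hbb-bs, Hba-a1, Hbb-bt and Hba-a2 was the same in all 3 libraries, without overlap. With lengths from the RefSeq start, Hbb-bs was at 24944, 27890 and 32894 FPKM and Hba-a1 at 23391, 24062 and 27282 FPKM in libraries 1, 2 and 3, so that their ranges overlapped. Per 100-base window found in no other gene, counted from that start, Hbb-bs had 1367, 1490 and 1725 reads and Hba-a1 had 2175, 2181 and 2427 reads, which put Hba-a1 first.

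**Figure D1:**
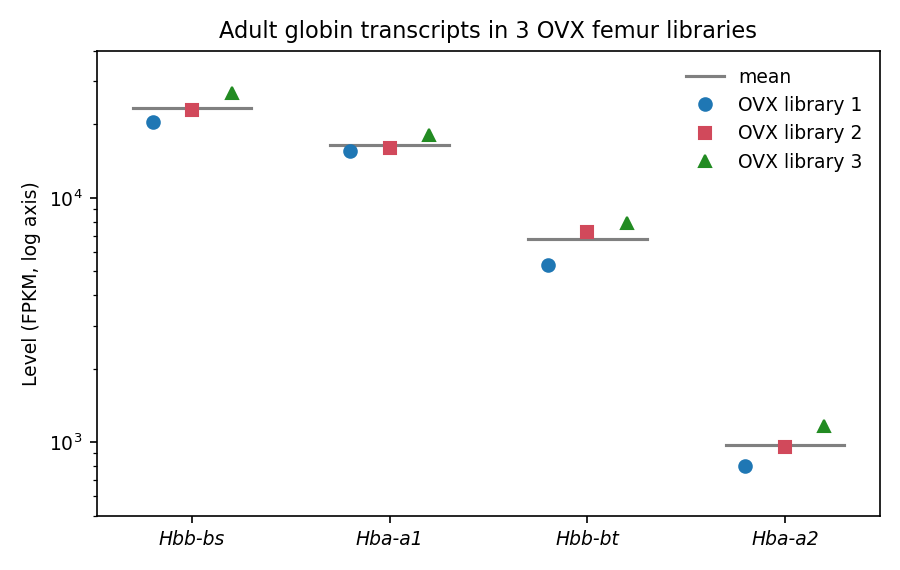
Level of each adult globin gene in FPKM (log axis) in the 3 OVX libraries, 1 symbol per library, with the mean as a grey line. Every gene was highest in library 3 and lowest in library 1, and by the listed lengths used here the genes do not overlap, from 801 FPKM for Hba-a2 in library 1 to 26898 FPKM for Hbb-bs in library 3.

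Counting error was small beside the differences between library 3 and library 1. The exact Poisson 95% interval of Hba-a2 in library 1, the member value with the fewest reads at 9234, ran from 785 to 818 FPKM. For Hba-a1 the difference between libraries 1 and 2 was within counting error as a share of reads listed, 1.278% (exact 95% binomial interval 1.272% to 1.283%) and 1.285% (1.28% to 1.291%). Its FPKM differ more because the totals behind the FPKM are 1.02 and 0.993 times the reads listed in these libraries. Together the 4 genes took 3.30% of reads in library 1 (exact 95% binomial interval 3.29% to 3.31%), 3.59% in library 2 (3.58% to 3.60%) and 4.15% in library 3 (4.14% to 4.16%). Of the summed FPKM of all genes, they made up 11.3%, 12.4% and 13.8%. FPKM divides reads by gene length, so short genes weigh more in this sum than in the share of reads. The reads carry no stated molecular identifiers and need not be independent molecules, so these intervals cover counting error only.

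All 4 members were highest in library 3 and lowest in library 1. This order was held by 14.2% of the 14011 genes tested, those averaging 1 FPKM or more. The highest library was 1.32 times the lowest for Hbb-bs, 1.48 times for Hbb-bt, 1.17 times for Hba-a1 and 1.46 times for Hba-a2. The median of these ratios was 1.39 for the members and 1.15 for all genes tested. A chi-square test of reads against library totals, with Benjamini-Hochberg adjustment over all genes tested, called all 4 members at an adjusted p below 0.05, where it called 38.7% of all genes. It also called all 23 of the other genes averaging 1000 FPKM or more, so the members' calls are what genes of such depth gave here. Without library 3, Hba-a1 was not called, with libraries 1 and 2 differing 1.006-fold by reads listed. The test compares 3 libraries of 1 group and not conditions. The titles give 8, 9 and 10 weeks to libraries 1, 2 and 3, so the globin order is also the order of these weeks. With 1 library per week, week and library cannot be told apart, and each SD over the 3 libraries includes any effect of week.

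The ratio of alpha to beta globin, summed FPKM of Hba-a1 and Hba-a2 over that of Hbb-bs and Hbb-bt, was 0.634, 0.562 and 0.553 in libraries 1, 2 and 3. It averaged 0.583 ± 0.0441 (SD, n = 3). Such a ratio is taken within a library and does not depend on the scaling between libraries. The 95% counting intervals, 0.631 to 0.637, 0.560 to 0.565 and 0.551 to 0.556, did not overlap, and library 1 stood apart from the other 2 by more than they differed from each other. Alpha globin was at 16299, 16899 and 19243 FPKM, with a coefficient of variation of 8.90%. Beta globin was at 25711, 30048 and 34774 FPKM, with a coefficient of variation of 15.0%. Summed beta globin thus varied more between libraries than summed alpha globin, which Hba-a1 dominates. Among single genes Hba-a2, at 18.8%, varied more than Hbb-bs, at 14.1%. The ratio was highest where both sums were lowest.

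Whether alpha or beta globin was the more abundant depended on the length used for each gene. Under the listed lengths, 768 bases for Hbb-bs, 703 for Hbb-bt, 812 for Hba-a1 and 667 for Hba-a2, the ratio was below 1 in all 3 libraries. The listed length of Hba-a1 includes 161 bases that GENCODE places before the RefSeq start. With transcripts measured from the RefSeq start, 628, 630, 538 and 551 bases in the same order, the ratio averaged 0.726 ± 0.0548 (SD, n = 3). If reads that match both copies had been left out of the counts, only windows found in no other gene could yield reads. Over the full principal transcripts there were 198, 273, 261 and 116 such windows of 100 bases, in the same order, and the ratio per window was 0.569, 0.514 and 0.505 in libraries 1, 2 and 3. With 50-base windows it averaged 0.682 and with 150-base windows 0.482, all below 1.

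Only from the RefSeq start on did the same calculation turn the ratio over. There were then 198, 200, 100 and 116 windows of 100 bases, and the ratio was 1.33, 1.18 and 1.16 in libraries 1, 2 and 3. With 50-base windows it was 2.66, 2.36 and 2.31, and with 150-base windows 1.09, 0.964 and 0.946. The ratio was highest in library 1 and lowest in library 3 under each of these lengths. Each length applies alike to all libraries, so this is no separate check of that order. All of them were chosen after the data had been seen. The windows from the RefSeq start were added after the values over full transcripts were known, because the extra bases of Hba-a1 also stand in the genome before Hba-a2. Which length matches the counting was not tested, so the order of alpha and beta globin is not settled here.

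Hbb-bs exceeded Hbb-bt by 3.84, 3.15 and 3.42 times in FPKM in libraries 1, 2 and 3, or 3.47 ± 0.347 times on average (SD, n = 3). The counting intervals, 3.81 to 3.87, 3.13 to 3.17 and 3.39 to 3.44, did not overlap. As a share of beta globin FPKM, Hbb-bt made up 20.7%, 24.1% and 22.7%. Here library 2, not library 3, had the largest share of Hbb-bt, so that the balance of the beta genes did not follow the order of their levels. From the RefSeq start the pair have transcripts of nearly equal length and nearly equal numbers of windows found in no other gene, 198 for Hbb-bs and 200 for Hbb-bt. Over those windows Hbb-bs exceeded Hbb-bt by 4.24, 3.48 and 3.77 times. Over the windows of the full transcripts, which begin 73 bases earlier for Hbb-bt, the excess was 5.78, 4.74 and 5.14 times.

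Hba-a1 exceeded Hba-a2 by 19.3, 16.7 and 15.5 times in FPKM, or 17.2 ± 1.97 times on average (SD, n = 3), with counting intervals of 18.9 to 19.8, 16.4 to 17.0 and 15.2 to 15.8. The share of Hba-a2 in alpha globin FPKM was 4.92%, 5.66% and 6.06%. Library 1 again held the most unequal pair, as it did for the beta genes. The size of this excess depended strongly on the length used. Over 100-base windows found in no other gene, it was 10.5, 9.02 and 8.38 times for the full transcripts, and 27.3, 23.5 and 21.9 times from the RefSeq start on. Hba-a1 was the higher in every library under each length. A change of length multiplies this ratio by the same factor in every library. That library 1 had the largest excess under each length was therefore fixed in advance. Whether reads of one gene were counted for the other was not tested.

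**Figure D2:**
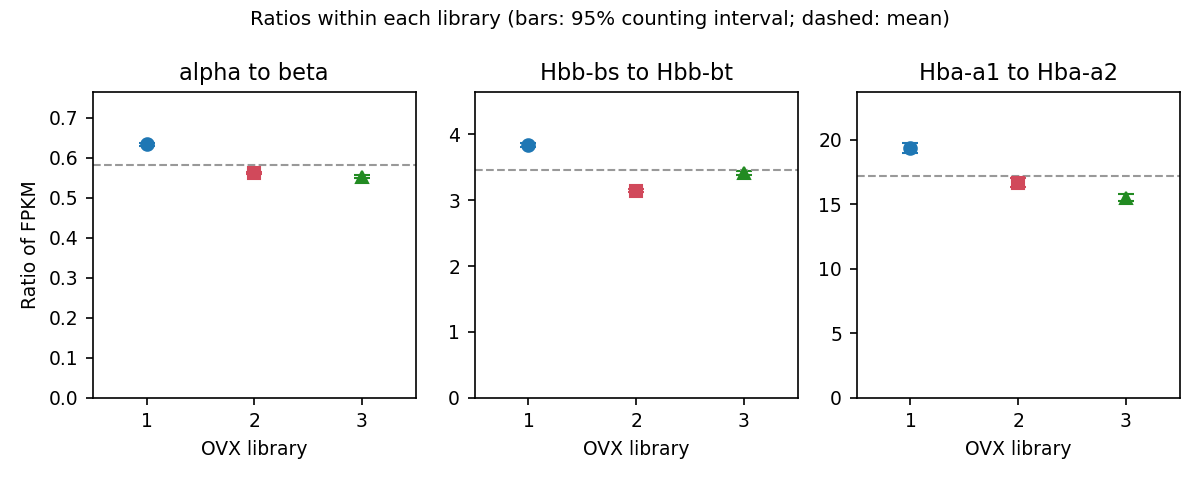
Ratio of FPKM within each OVX library (axes from 0) for alpha to beta globin, Hbb-bs to Hbb-bt and Hba-a1 to Hba-a2, with 95% counting intervals as bars and the mean over libraries dashed. Library 1 has the highest value in each panel, at 0.634, 3.84 and 19.3, while the lowest is library 3 for alpha to beta and Hba-a1 to Hba-a2 and library 2 for Hbb-bs to Hbb-bt.

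The other globin genes of both clusters were at or near 0 apart from the theta genes. Hbb-y, the embryonic epsilon-like gene, had 2, 2 and 1 reads in libraries 1, 2 and 3, and Hba-x, the embryonic zeta-like gene, had 4, 3 and 1 reads. Hbb-bh1, another embryonic beta-like gene, had 3 reads in library 2 and 0 in libraries 1 and 3, where a count of 0 allows up to 0.283 and 0.296 FPKM. Hbb-bh2 had 1, 0 and 1 reads, and the pseudogene Hba-ps4 on chromosome 17 had 1, 1 and 0 reads. The pseudogenes Hbb-bh0, Hbb-bh3 and Hba-ps3 had 0 reads in every library, which allows up to 1.41, 0.682 and 0.451 FPKM in library 3. At these read numbers no difference between libraries was detectable for the embryonic genes.

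The theta genes lie between and beyond the alpha genes, and their products have no settled role in hemoglobin. Hbq1b, which starts 3.45 kb downstream of Hba-a1, had 34.4, 32.1 and 32.7 FPKM in libraries 1, 2 and 3. Hbq1a, which starts 16.6 kb downstream of Hba-a1, had 4.22, 3.73 and 5.01 FPKM from 44, 38 and 50 reads. Neither was called by the chi-square test, with adjusted p of 0.507 for Hbq1b and 0.499 for Hbq1a, and neither shared the order of the adult genes. Hba-a1 stood 450, 497 and 553 times above Hbq1b. Hbq1b, the theta gene nearer Hba-a1, was 8.16, 8.59 and 6.53 times as high as Hbq1a, with counting intervals that overlapped between libraries.

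**Figure D3:**
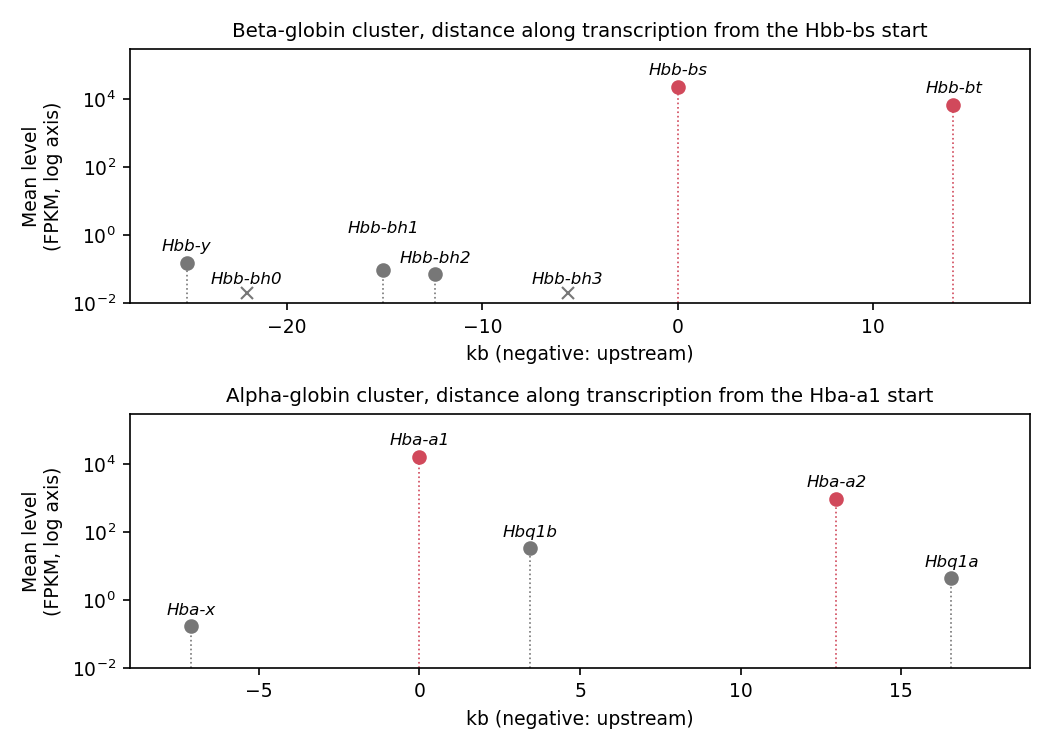
Mean level over the 3 OVX libraries (FPKM, log axis) of each globin gene by the distance of its start in kb, along the direction of transcription, from that of Hbb-bs (top) or Hba-a1 (bottom), with adult genes in red, others in grey and crosses for genes with 0 reads. The 4 adult genes lie between 975 and 23367 FPKM, and the embryonic genes upstream below 0.2 FPKM.

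Heme synthesis supplies the other component of hemoglobin. Of its 8 genes, 7 were called by the chi-square test, against 38.7% of all genes tested, and 5 had the globin order, highest in library 3 and lowest in library 1, against 14.2%. A call depends on read depth as well as on spread. The median ratio of highest to lowest library was 1.121 for these genes, below the 1.154 of all genes tested. Alas2, the erythroid enzyme that starts the pathway, had 440, 526 and 566 FPKM in libraries 1, 2 and 3, and Fech, which inserts the iron, had 165, 193 and 202 FPKM. Both had the globin order, with 1.29 and 1.23 times between highest and lowest library, against 1.35 times for summed beta globin. Beta globin was 58.4, 57.1 and 61.4 times as high as Alas2 in FPKM, a ratio with a coefficient of variation of 3.74%, against 15.0% for beta globin itself. Urod and Alad shared the order over smaller ranges of 1.11 and 1.08 times, and Alad was not called (adjusted p = 0.0787). Ppox went the other way, with 49.3, 41.7 and 44.0 FPKM and its highest value in library 1.

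Late red cell genes were split. Of 21 genes, 14 were called, against 38.7% of all genes tested, and 10 had the globin order, against 14.2%. Their median ratio of highest to lowest library, 1.087, was below the 1.154 of all genes tested, so the calls do not mark a wide spread. Bpgm, which makes the 2,3-bisphosphoglycerate that lowers the oxygen affinity of hemoglobin, had 137, 159 and 180 FPKM in libraries 1, 2 and 3. Slc4a1, the anion exchanger of the red cell membrane, had 511, 540 and 575 FPKM. Both shared the globin order, with ranges of 1.31 and 1.12 times. Library 3 was the highest for 15 of the 21 genes and library 1 for 5. Among those 5, Kel had 94.6, 79.5 and 88.3 FPKM and Epor had 54.4, 48.4 and 52.8 FPKM. Both were called by the chi-square test (adjusted p = 1.83e-16 and 0.00099). Slc25a37, the mitochondrial iron importer, had 191, 192 and 195 FPKM, in the globin order over a range of only 1.02 times. Epb42, a membrane skeleton protein, had 49.1, 47.8 and 48.6 FPKM. Neither Slc25a37 nor Epb42 was called (adjusted p = 0.0893 and 0.14). Eif2ak1, the heme-regulated kinase that couples globin translation to heme, had 33.3, 34.7 and 34.5 FPKM and was not called (adjusted p = 0.784).

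Of 11 erythroid transcription factors, 10 were called, against 38.7% of all genes tested. Their median ratio of highest to lowest library was 1.149, near the 1.154 of all genes tested, so here too the calls do not mark a wide spread. The globin order was held by 1 of the 11, near the 14.2% of all genes tested, and is no result about these factors. That gene was Bcl11a, a repressor of embryonic globins, with 4.88, 5.43 and 5.61 FPKM in libraries 1, 2 and 3. Library 3 was the highest for 9 of the 11, as for the globins, but library 2 was the lowest for 8 of the 11. Klf1, the activator of adult beta globin, had 132, 120 and 140 FPKM, Gata1 had 46.7, 40.3 and 50.9 FPKM, and Tal1 had 61.8, 56.5 and 65.8 FPKM. In library 2 Hbb-bs, Hbb-bt and Hba-a2 were above library 1, while Klf1, Gata1 and Tal1 were below it. Hba-a1 differed between these 2 libraries only within counting error as a share of reads listed. Myb, a factor of early progenitors, was lowest in library 3, with 32.7, 29.0 and 28.2 FPKM.

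**Figure D4:**
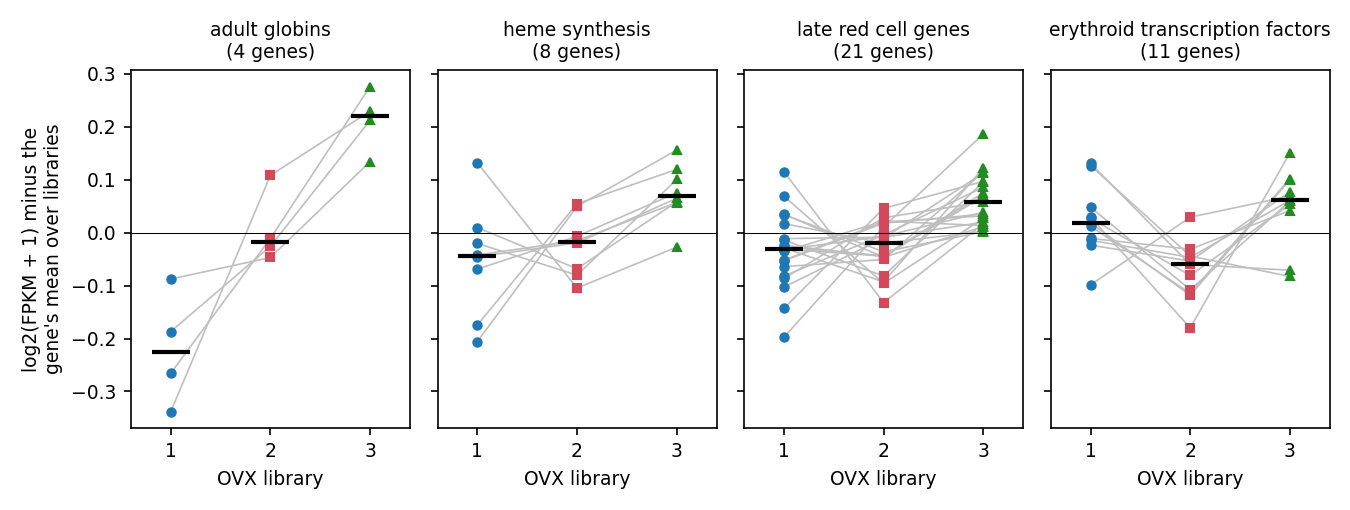
log2(FPKM + 1) of each gene minus its own mean over the 3 OVX libraries, for 4 adult globin genes, 8 heme synthesis genes, 21 late red cell genes and 11 erythroid transcription factors, with grey lines joining the values of a gene and black bars the median. The medians of the globins are -0.23, -0.02 and 0.22 in libraries 1, 2 and 3, and those of the transcription factors are 0.02, -0.06 and 0.06.

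The genes most like the summed globins in pattern were ranked by the root mean square distance of log2(FPKM + 1), centred on each gene's mean, over the 3 libraries among 5043 protein-coding genes of at least 10 FPKM. The nearest was Rpl30, a ribosomal protein gene, at a distance of 0.0059, with 85.8, 96.6 and 110.1 FPKM in libraries 1, 2 and 3. Also among the nearest 10 were Rps21, Bpgm, Usp14, Chmp5, Galk1, Hdc, Fam220a and Ube2l6, at distances of 0.010 to 0.032. Bpgm was the only one of the nearest 10 on the lists of erythroid genes above. Among the members the distance was 0.017 for Hbb-bs, 0.062 for Hba-a1, 0.073 for Hba-a2 and 0.12 for Hbb-bt. Over 3 libraries such likeness is weak, since 449 of the 5043 genes lay within 0.1.

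Summed over each list, markers of bone, cartilage, muscle and fat spread more between these libraries than the summed globins did. Sums of blood cell markers other than those of megakaryocytes spread less. Single markers did not all follow their list. Csf1r, a macrophage and monocyte marker, ranged 1.40-fold and Fabp4, an adipocyte marker, 1.25-fold, against 1.29-fold for the summed globins. The 9 measured erythroid markers other than globins summed to 2068, 2170 and 2352 FPKM in libraries 1, 2 and 3, in the globin order. The 10 neutrophil markers summed to 25368, 27746 and 25805 FPKM, the 8 B cell markers to 562, 510 and 512 FPKM, and the 7 macrophage and monocyte markers to 367, 376 and 383 FPKM. The 9 osteoblast markers summed to 2537, 5760 and 1492 FPKM, the 6 osteoclast markers to 396, 1098 and 827 FPKM, the 7 chondrocyte markers to 24.7, 532 and 53.9 FPKM, the 7 skeletal muscle markers to 952, 69.2 and 634 FPKM, and the 4 adipocyte markers to 157, 313 and 103 FPKM. The 6 megakaryocyte markers summed to 1494, 986 and 1548 FPKM. No marker of these lists was at 0 in any library, so all 3 held transcripts of many cell types besides the macrophage line named in the characteristics. For 2 chondrocyte markers this rested on 1 read, Matn3 in libraries 1 and 3 and Col10a1 in library 1. Library 2 was highest in cartilage and bone markers and lowest in muscle, and was the middle library for all 4 globins. Whether the tissue make-up of the libraries played a part in the globin levels was not tested. With library 1, 2 or 3 left out, the alpha to beta ratio averaged 0.558, 0.594 or 0.598, against 0.583 over all libraries. These averages do not bear on the globin levels.

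**Figure D5:**
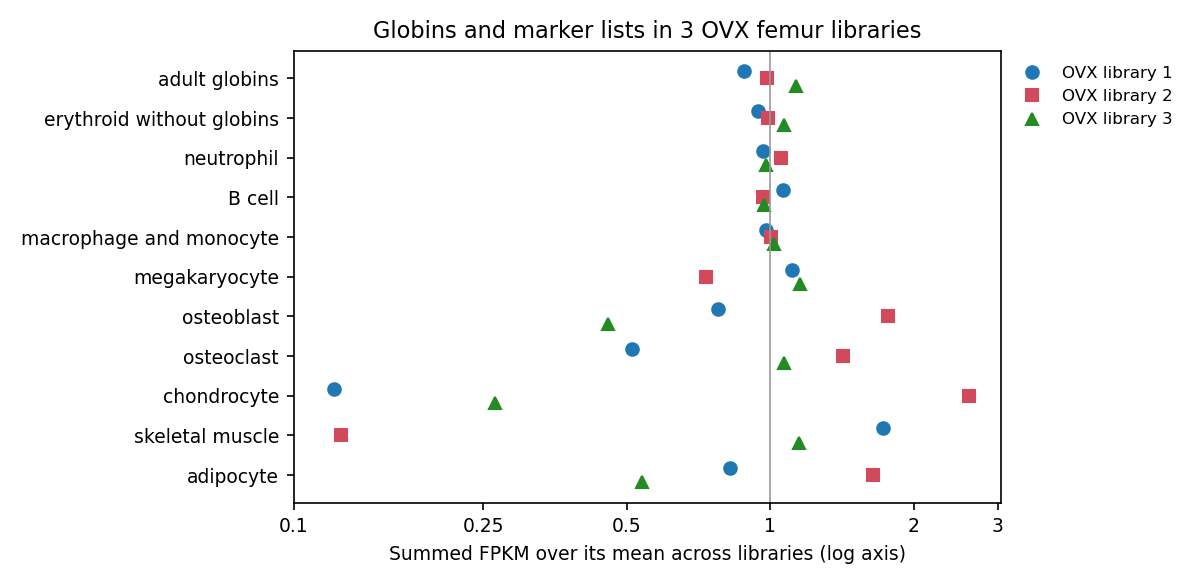
Summed FPKM of the 4 adult globins and of each marker list in every OVX library, divided by its mean over the 3 libraries (log axis). The globins lie near 1, with library 3 highest, while chondrocyte, muscle, osteoblast and adipocyte lists spread much further, with library 2 at one end of each.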

How the data were processed

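Total RNA came from powdered frozen femur, per the labels' protocols. The submitters' processing notes name Trimmomatic, FastQC, STAR and featureCounts, and build mm10, without tool versions. Strandedness and the handling of multiply mapped reads were not found in the labels. Values deposited by the authors are FPKM, 1 per gene and library, beside 1 listed gene length. FPKM times length was a whole multiple of 1 step per library for 100% of values within 0.01 read, which gave 17017907, 16964740 and 16581579 reads in libraries 1, 2 and 3. The totals behind the FPKM were 1.02, 0.993 and 0.997 times these.

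Columns entered only if the labels name the library. This held for the 3 OVX columns, and the other 3 columns of values were not used, so the planned comparison of zingerone with OVX (limma on log2(FPKM + 1)) and its permutation tests of ratios were not run. Replicates differed well beyond sampling noise, and each counted as 1 sample.

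Genes averaging 1 FPKM or more were compared by a chi-square test of reads listed against library totals, checked on simulated data, with Benjamini-Hochberg adjustment and a threshold of 0.05. Intervals are at 95%, exact Poisson for levels, exact Clopper-Pearson for shares and the delta method for ratios; a count of 0 allows up to 3 reads. Sequence comparisons used GENCODE release M21 and RefSeq promoters of GRCm38.p6, where all 4 members were found; of 54532 gene identifiers, 53499 had the same start and end in GENCODE. No log pseudocount other than 1 was used, and the 10 genes most like the globins in pattern, the 4 members, the other globin genes and the erythroid lists are the genes named; neighbours in rank were also named. Some genes of these lists are counted but not reported here by name. The members and lists were chosen with earlier results of these data known. The software was Biopython 1.88, matplotlib 3.10.9, scipy 1.17.1 and pandas 2.3.3, with numpy 2.4.6 under Python 3.11.15.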

Additional observations from a re-analysis of the deposited data

How the results depend on the processing

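Scaling by the reads listed, by median-of-ratios factors or by totals without the 4 adult globin genes moved the 4 globin levels by less than 1 SD and cancelled in the ratios. Length choices, added after the data had been seen, moved more. With the principal transcript length, Hbb-bs averaged 28576, Hba-a1 19174 and Hba-a2 1173 FPKM and the Hbb-bs to Hbb-bt ratio 4.24. From the RefSeq start, Hbb-bs averaged 28576, Hba-a1 24912 and Hba-a2 1180 FPKM, with ratios of 0.726 for alpha to beta and 21.4 for Hba-a1 to Hba-a2. Over windows of 50, 100 and 150 bases found in no other gene, tried first on full transcripts, alpha to beta averaged 0.682, 0.530 and 0.482, Hba-a1 to Hba-a2 6.54, 9.29 and 10.2, and Hbb-bs to Hbb-bt 5.22 throughout. From the RefSeq start, added once those values were known, alpha to beta averaged 2.44, 1.23 and 0.999, Hba-a1 to Hba-a2 27.6, 24.2 and 23.6, and Hbb-bs to Hbb-bt 3.83 throughout. Hbb-bs to Hba-a1 averaged 1.41 by the listed lengths, 0.337 to 0.829 over the windows from the RefSeq start and 1.14 to 1.91 under the other lengths. As a ratio of reads, Hba-a1 to Hba-a2 was 20.9. These differences follow from the lengths alone. With 1 library left out, the count of genes that differed between libraries, 5418 in all, ran from 2527 to 4177, which compares fewer libraries. It was 6205 with no filter, 3787 among genes averaging 5 FPKM or more and 5390 with totals without the globins. Of the levels of other named genes, 12 moved by more than 1 SD with totals without the globins. No paired analysis was possible because columns of 1 group were used. Alternatives for Ahsp and for zingerone against OVX were not run. With 3 libraries, the SD itself is imprecise, and depth limits the embryonic genes, the globin pseudogenes and Hbq1a, whose 38 to 50 reads leave a 1.34-fold range uncalled.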

Other observations

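Genes that clear free hemoglobin and heme, a list added after the data had been seen, gave values that the comparisons above do not use. Cd163, the macrophage receptor for hemoglobin bound to haptoglobin, had 6.86, 12.3 and 17.3 FPKM in OVX libraries 1, 2 and 3. This is the globin order, over a wider range than any adult globin gene. Of the 7 genes of this list that were tested, 2 had the globin order, against 14.2% of all genes tested. Hmox1, which opens the heme ring, had 198, 160 and 202 FPKM, with library 2 the lowest. Slc40a1, at 38.8, 34.8 and 40.0 FPKM, and Slc48a1, at 64.4, 63.3 and 68.3 FPKM, were also lowest in library 2. Hp, the haptoglobin gene, had 257, 311 and 254 FPKM, with library 2 the highest. Hpx, the heme carrier hemopexin, was below 0.3 FPKM in each library. Blvrb, a biliverdin reductase abundant in red cells, had 103, 105 and 112 FPKM, also in the globin order, while Blvra, the other biliverdin reductase, had 14.0, 14.6 and 14.4 FPKM and was not called by the chi-square test (adjusted p = 0.958).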
